A study of Mus musculus with 22 samples.

Results

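The 9 genes described here encode transcription factors of the oocyte programme, followed in fully-grown germinal vesicle (GV) oocytes of mice with mutations in the RNA interference (RNAi) and piRNA pathways. They were chosen by gene symbol from the 52636 genes of the count table: the basic helix-loop-helix genes Sohlh1, Sohlh2 and Figla, the homeobox genes Nobox and Lhx8, the forkhead gene Foxo3, the POU gene Pou5f1, and the basal transcription genes Taf4b and Tbpl2. The rule used gene symbols alone, and each of the 9 symbols matched 1 gene identifier.

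The study sequenced RNA from pools of GV oocytes of C57BL/6 females in 22 libraries and 2 runs. The single-end run held 3 wild-type libraries, 4 of Dicer dMT/dMT, 3 of Dicer SOM/SOM and 1 of Dicer dMT/WT. The dMT allele lacks the MT retrotransposon promoter in an intron of Dicer that gives rise to the short oocyte isoform DICER O, and a second retrotransposon promoter leaves some of that isoform. The SOM allele encodes full-length, HA-tagged Dicer without the introns that hold these promoters, and comes from 1 embryonic stem cell clone. The paired-end run combined the SOM allele with Mili DAH, a mutation of the catalytic site of the piRNA factor MILI. It held 4 double mutants, homozygous as Dicer SOM/SOM and Mili DAH/DAH and aged 40, 35, 11 and 11 weeks, and 2 RNAi mutants, Dicer SOM/SOM but Mili DAH/WT, aged 17 and 13 weeks. The remaining libraries were 1 piRNA mutant, Dicer SOM/WT and Mili DAH/DAH, aged 16 weeks, and 4 controls that were heterozygous as Dicer SOM/WT and Mili DAH/WT, aged 36, 38, 10 and 17 weeks. Every paired-end library, controls included, thus carried at least 1 mutant allele of each gene, and no ages are labelled in the single-end run.

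Total counts ranged from 6468380 to 90713013 in the single-end run, the lowest being Dicer SOM/SOM replicate 3 and the next lowest 47741738, and from 22928936 to 43540806 in the paired-end run. Values are CPM, counts scaled to the library total and to the trimmed mean of M-values within each run, so levels were compared within a run. Dicer1, which checks the Dicer labels, fell to 0.0493 of the wild-type level in Dicer SOM/SOM and to 0.478 in Dicer dMT/dMT. The 8 markers of fully grown oocytes were above 3 counts in every library, with a summed level of 11000 to 14490 CPM. The 12 granulosa and cumulus markers summed to 315 to 435 CPM in the single-end run and to 365 to 576 CPM in the paired-end run, and the 8 B cell markers to 72.2 to 147 CPM, with Igkc at 0 in every library. Paired-end libraries formed 2 sets by Gm42418, a locus that takes up ribosomal RNA reads: 6 libraries at 4083 to 5500 CPM and 5 at 294 to 557 CPM, each set with 2 double mutants and 2 controls. Both RNAi mutants were in the first set and the piRNA mutant in the second.

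As background, SOHLH1, SOHLH2, FIGLA, NOBOX and LHX8 are germ cell factors that drive the formation and early growth of primordial follicles and turn on oocyte genes such as those of the zona pellucida, the growth factor Gdf9 and Oosp1. FOXO3 holds primordial follicles dormant and is sent out of the nucleus when KIT signals through PI3K and AKT. TAF4B is a germ cell subunit of TFIID, and TBPL2 takes the place of TBP in core promoter recognition in growing oocytes. POU5F1 is a pluripotency factor whose transcript is also stored in the oocyte.

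In the mm10 (GRCm38) genome, Foxo3 spans chr10:42181841-42276755 on the minus strand, Sohlh2 chr3:55182028-55209957 on the plus strand and Nobox chr6:43303674-43309554 on the minus strand. Lhx8 lies at chr3:154306294-154330659, Figla at chr6:86017191-86020996, Sohlh1 at chr2:25842995-25847248, Tbpl2 at chr2:24071721-24096595 and Pou5f1 at chr17:35506018-35510772. Pou5f1 was the single member with exons overlapping those of another gene: 291 bases, 21.4% of its exonic length, are shared with the antisense gene Gm19553, and reads were counted without strand. None of the 9 genes has a near-identical copy in the annotation.

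RefSeq promoter windows (GRCm38.p6, 250 bases before to 50 bases after the start) were at hand for 8 of the 9 genes, Taf4b having none. The windows of the 3 genes that passed a test below are shown so that their unlike composition can be seen, with E-boxes (CANNTG, the element that SOHLH and FIGLA proteins bind, the same on both strands) in capitals. Sohlh2 (chr3:55181794-55182093, plus strand), Nobox (chr6:43309505-43309804, minus strand) and Foxo3 (chr10:42276646-42276945, minus strand) read, 5′ to 3′:
Sohlh2: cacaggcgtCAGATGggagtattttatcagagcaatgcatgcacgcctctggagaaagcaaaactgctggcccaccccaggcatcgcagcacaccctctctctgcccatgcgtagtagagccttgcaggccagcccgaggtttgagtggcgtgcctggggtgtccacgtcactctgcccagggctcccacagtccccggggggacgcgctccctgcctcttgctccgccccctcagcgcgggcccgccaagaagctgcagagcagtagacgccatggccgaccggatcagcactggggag
Nobox: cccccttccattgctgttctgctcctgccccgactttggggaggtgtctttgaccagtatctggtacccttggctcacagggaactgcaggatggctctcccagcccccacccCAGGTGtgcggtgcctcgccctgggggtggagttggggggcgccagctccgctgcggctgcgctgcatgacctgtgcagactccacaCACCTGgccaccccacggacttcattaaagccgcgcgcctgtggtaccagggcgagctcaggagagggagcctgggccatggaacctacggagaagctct
Foxo3: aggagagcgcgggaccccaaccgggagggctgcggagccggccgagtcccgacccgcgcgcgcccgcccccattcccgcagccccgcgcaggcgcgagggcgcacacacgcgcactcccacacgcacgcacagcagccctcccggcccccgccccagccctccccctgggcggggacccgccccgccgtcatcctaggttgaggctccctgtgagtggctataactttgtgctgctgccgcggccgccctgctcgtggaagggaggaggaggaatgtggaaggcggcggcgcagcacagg
The Nobox window held 2 E-boxes, both of the form CAGGTG on one strand or the other, Sohlh2 held 1 and Foxo3 held 0. An E-box of any kind was found in 72.3% of all 32851 windows, and CAGGTG in 20.2%. Sohlh1 carried 5 E-boxes, 3 of them CACGTG, a form found in 7.15% of windows, and Tbpl2 carried 5 and Figla 4. The Foxo3 window was 75% G and C, against a median of 52.7% over all windows. Neither TAATTG (8% of windows), TAATTA (5.29%), TATAAA (13.6%), TGTTTAC (3.65%) nor ATGCAAAT (1.74%), all searched on both strands, occurred in a window of the 8 genes. A match of these letters is a description of the window and was not tested as a binding site.

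Levels of the 9 transcripts differed by orders of magnitude. Per kilobase of exon, Nobox was the most abundant in wild-type oocytes, at 274 ± 6.27 CPM per kb (SD, n = 3). Foxo3 followed at 131 ± 7.77, Lhx8 at 81.1 ± 5.08 and Pou5f1 at 24.7 ± 2.66 CPM per kb, with no overlap between neighbours in this order. Figla (9.64 ± 1.45), Taf4b (7.37 ± 1.08) and Tbpl2 (6.85 ± 0.525 CPM per kb) overlapped in sequence, and Sohlh2 was lower at 2.46 ± 0.373 CPM per kb. In the heterozygous controls Nobox was again highest at 216 ± 62.1 CPM per kb (n = 4), whereas Foxo3 (103 ± 19.4) and Lhx8 (101 ± 10.3 CPM per kb) overlapped. In Dicer SOM/SOM oocytes, Lhx8 at 90.8 ± 14.3 and Foxo3 at 87.7 ± 12.3 CPM per kb (n = 3) likewise could not be separated.

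**Figure D1:**
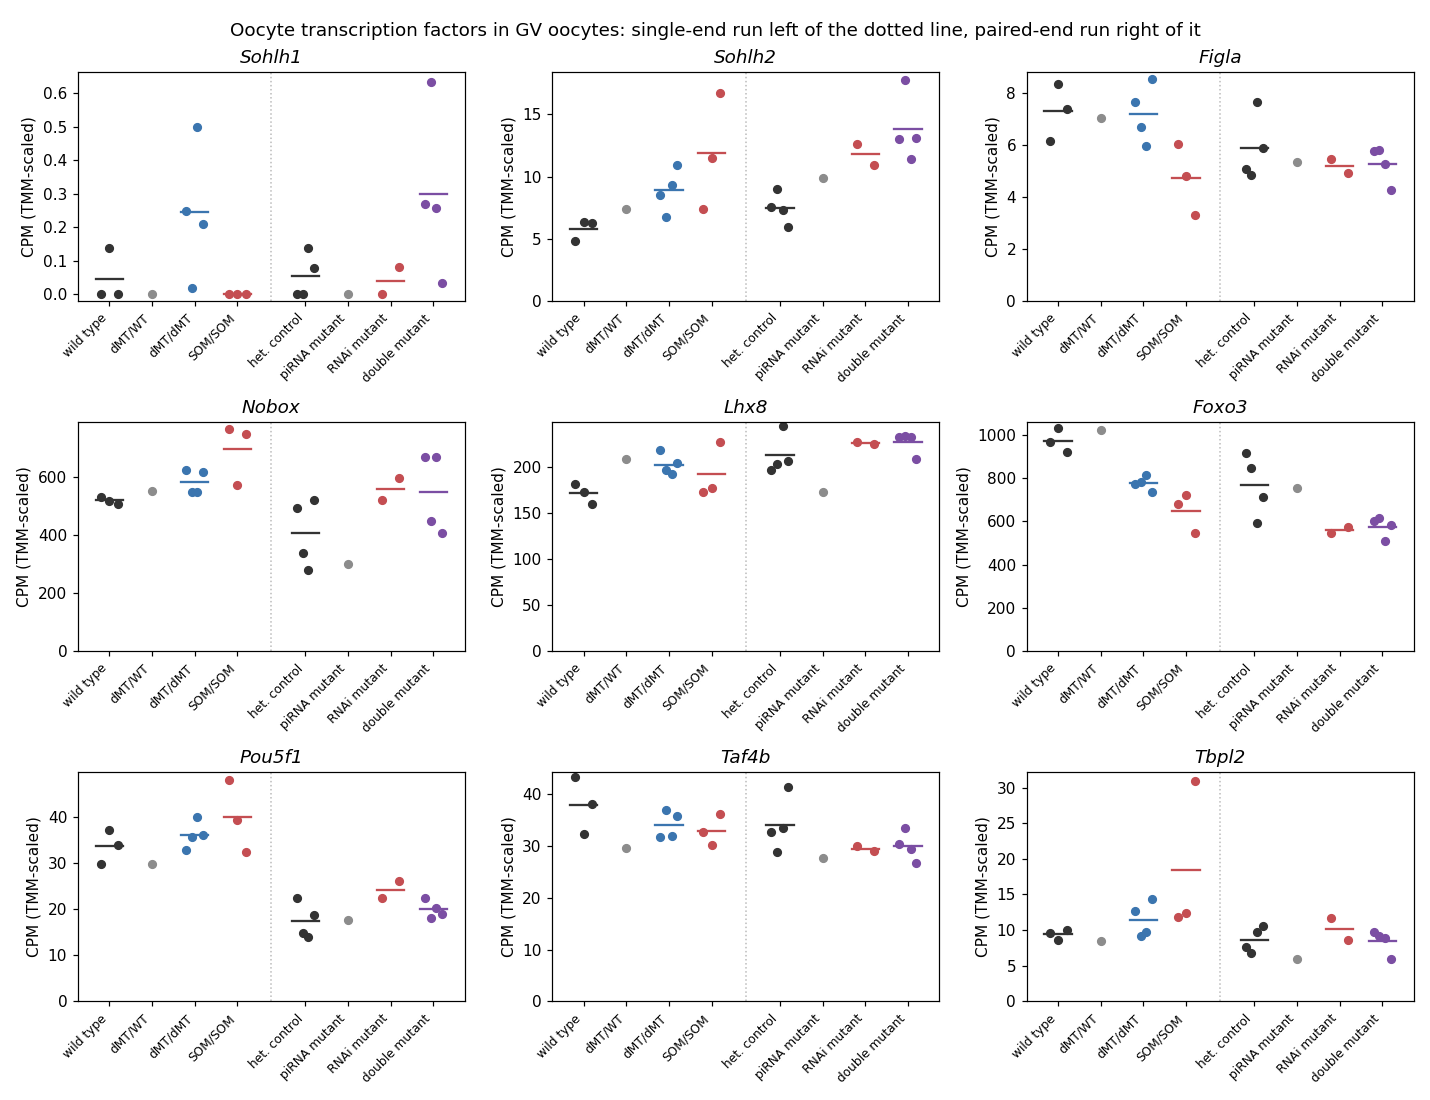
Each point is the level of one gene in one library in CPM (linear axis), by genotype, and bars are group means; the dotted line parts the single-end from the paired-end run. Foxo3 is lower in all Dicer dMT/dMT and SOM/SOM libraries (547 to 816 CPM) than in wild type (918 to 1032 CPM), and Sohlh2 is higher in all of them.

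Sohlh1, the germ cell factor that acts with SOHLH2, was at the limit of detection. It was listed at 0 counts in 2 of 3 wild-type libraries and at 8 counts in the third, and at 0 in all 3 Dicer SOM/SOM libraries. A count of 0 allows up to 3 counts, equal to 0.0470 to 0.464 CPM in the 3 SOM/SOM libraries. Dicer dMT/dMT libraries held 12, 1, 31 and 18 counts and double mutants 10, 28, 9 and 1, reaching at most 0.50 and 0.632 CPM. The controls of the paired-end run held 0, 0, 5 and 2 counts. Dicer dMT/dMT and the double mutants each overlapped their controls. The listed values of SOM/SOM and dMT/dMT libraries did not overlap (adjusted p = 0.122, edgeR), but within the limit of 3 counts they could. Sohlh1 did not pass the test against wild type either (edgeR quasi-likelihood, adjusted p = 0.240 for dMT/dMT and 0.282 for SOM/SOM), and it was too low to be tested in the paired-end run.

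The effect of losing DICER O was addressed first with the dMT allele, by edgeR's quasi-likelihood test over 23151 genes with a Benjamini-Hochberg adjusted p under 0.05 as the call. Foxo3 fell, and the other 8 members did not pass. Of all genes tested, 7.30% were called lower and 8.06% higher, so 1 of 9 lower and 0 of 9 higher is close to the background. Foxo3 was at 968, 1032 and 918 CPM in wild type and at 771, 781, 816 and 736 CPM in Dicer dMT/dMT. All 4 mutants were below all 3 wild-type libraries, with a log2 fold change of −0.33 ± 0.09 (SE, adjusted p = 0.0381). The call was lost without any 1 of these 7 libraries (adjusted p from 0.0588 to 0.143), although the difference stayed between −0.37 and −0.27. Nobox, Lhx8 and Sohlh2 were likewise without overlap between the groups and higher in the mutants, but none passed (adjusted p = 0.320, 0.149 and 0.121). The share of all genes without overlap was not computed, in this comparison or in any other. An unadjusted p under 0.05 (edgeR) was met by 3 of the 9 members and by 29.5% of all genes.

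Dicer SOM/SOM oocytes, which make no DICER O, differed from wild type in 3 members: Foxo3 fell, and Nobox and Sohlh2 rose. Against a background of 14.5% of genes called higher and 14.2% called lower, 2 of 9 members were higher and 1 of 9 lower. Foxo3 measured 678, 722 and 547 CPM in the 3 mutants, each below every wild-type library. The change was −0.58 ± 0.10 on the log2 scale (adjusted p = 0.00168), 67.0% of the wild-type level, and it was called in every alternative tried (highest adjusted p 0.0141).

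Sohlh2 was at 4.80, 6.36 and 6.30 CPM in wild type and at 7.42, 11.5 and 16.7 CPM in SOM/SOM. All mutants were above all wild types, and the highest value came from the shallow replicate 3. The change was 0.98 ± 0.27 (adjusted p = 0.0194). It lost its call without that replicate (0.71, adjusted p = 0.0519), without SOM/SOM replicate 2 (0.96, 0.0504) and without wild-type replicate 1 (0.85, 0.0715).

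Nobox was at 530, 518 and 507 CPM in wild type and at 764, 571 and 747 CPM in SOM/SOM. The groups did not overlap, and the change was 0.43 ± 0.11 (adjusted p = 0.0153). Gm42418 moved with it: SOM/SOM replicates 1 and 3 held 12710 and 17280 CPM of that locus, against 4758 CPM in replicate 2 and 5203 to 5777 CPM in wild type. With the Gm42418 level as a covariate, Nobox differed by 0.22 ± 0.09 (adjusted p = 0.141) and Sohlh2 by 0.83 ± 0.31 (adjusted p = 0.0883), while Foxo3 was still called at −0.43 ± 0.10 (adjusted p = 0.0134). Nobox also lost its call without wild-type replicate 3 (adjusted p = 0.0516) and without SOM/SOM replicate 1 (0.0553).

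Tbpl2 and Figla did not overlap between SOM/SOM and wild type either. Neither passed by edgeR, whereas DESeq2, which called 31.06% of all genes, called both. How many of all genes lack overlap was not computed here either. An unadjusted p under 0.05 (edgeR) was met by 5 of the 9 members and by 39.9% of all genes. Tbpl2 was at 9.64, 8.65 and 10.1 CPM in wild type and at 11.9, 12.4 and 30.9 CPM in SOM/SOM, the last from the shallow library (215 counts). Its log2 difference of 0.89 ± 0.33 (adjusted p = 0.0646) was 0.36 without that library. Figla was at 6.18, 8.38 and 7.41 CPM in wild type and at 6.05, 4.83 and 3.31 CPM in SOM/SOM, a difference of −0.56 ± 0.21 (adjusted p = 0.0717). Lhx8, Pou5f1 and Taf4b overlapped between the groups, with differences of 0.17 ± 0.11, 0.27 ± 0.14 and −0.21 ± 0.13 on the log2 scale.

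The SOM/SOM and dMT/dMT oocytes were compared directly, since the dMT allele leaves some DICER O. None of the 9 members passed, against 4.03% of all genes called higher and 3.32% called lower in SOM/SOM. By edgeR 4 of the 9 had an unadjusted p under 0.05, as did 23.3% of all genes, and DESeq2 called 0 of the 9 where it called 13.98% of all genes. Foxo3 was lower in every SOM/SOM library (547 to 722 CPM) than in every dMT/dMT library (736 to 816 CPM), with a log2 difference of −0.25 ± 0.09 (adjusted p = 0.144). Figla differed by −0.54 ± 0.20 (adjusted p = 0.133) and Nobox by 0.26 ± 0.10 (adjusted p = 0.161), both with overlapping groups.

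**Figure D2:**
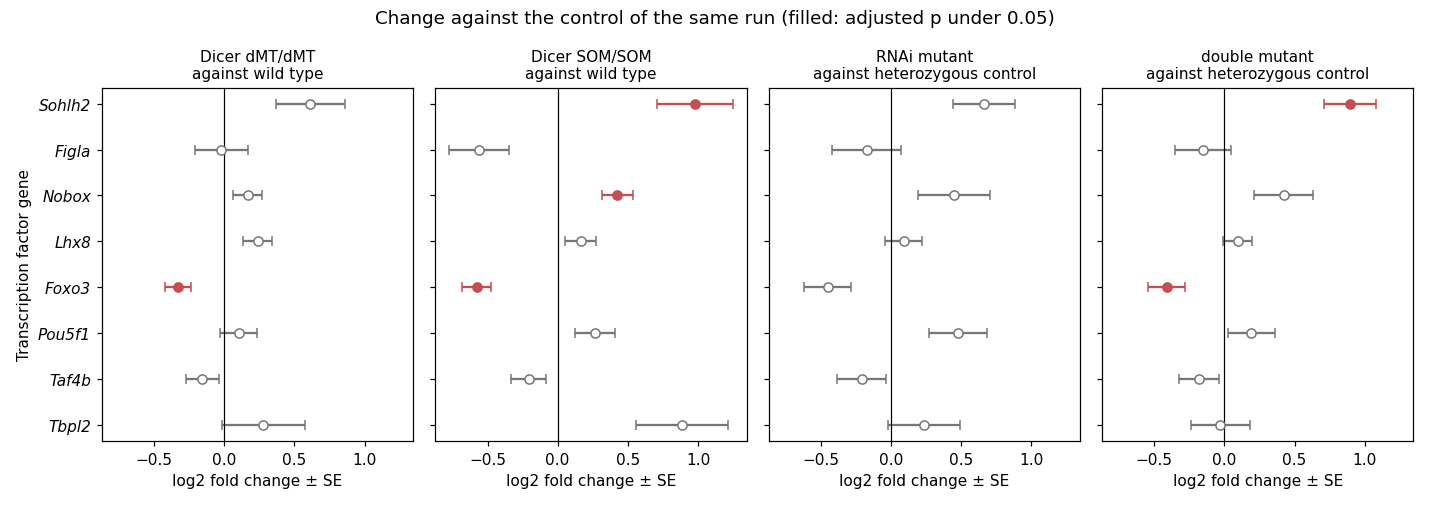
Log2 fold change with its standard error for the 8 members tested in both runs, in 4 comparisons with the controls of the same run; filled points passed an adjusted p of 0.05. Sohlh2 lies to the right of 0 and Foxo3 to the left in all 4 panels, from 0.61 to 0.98 and from −0.58 to −0.33.

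The paired-end run addressed the SOM/SOM genotype a second time, as RNAi mutants, against controls heterozygous for both mutations, over 20989 genes. None of the 8 members tested passed in the RNAi mutants (n = 2), where 7.07% of genes were called higher and 3.64% lower. By edgeR 3 of the 8 had an unadjusted p under 0.05, as did 23.6% of all genes, and DESeq2 called 1, Sohlh2, where it called 14.14% of all genes. Sohlh2 was at 12.6 and 11.0 CPM, above the 7.55, 8.96, 7.29 and 5.94 CPM of the controls (0.66 ± 0.22, adjusted p = 0.0759). Foxo3 was at 546 and 575 CPM, below the lowest control (−0.45 ± 0.17, adjusted p = 0.111), and Pou5f1 was at 22.38 and 26.2 CPM, just above the highest control at 22.35 CPM (0.48 ± 0.20, adjusted p = 0.172). How many of all genes were without overlap in this comparison was not computed. The RNAi mutants include no older animals, unlike the controls. With an age term Foxo3 differed by −0.289 ± 0.147 (adjusted p = 0.286) and Sohlh2 by 0.834 ± 0.219 (0.0320). Among the younger animals alone these were −0.225 ± 0.172 (adjusted p = 0.525) and 0.823 ± 0.253 (0.0900).

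Double mutants, which lack both pathways, had higher Sohlh2 and lower Foxo3 than heterozygous controls. That is 1 of 8 members called higher, where 12.3% of all genes were, and 1 of 8 called lower, where 8.83% were. Sohlh2 was at 13.0, 17.8, 11.4 and 13.1 CPM in the double mutants, all above the controls, a change of 0.89 ± 0.19 (adjusted p = 0.00330) or 1.86-fold. It was 0.88 ± 0.21 (adjusted p = 0.0196) among the libraries with Gm42418 over 1000 CPM and 0.94 ± 0.30 (adjusted p = 0.0919) among those under it. With an age term the change was 0.89 ± 0.17 (edgeR, adjusted p = 0.00213). Among the younger animals alone it was 0.89 ± 0.25 and not called (adjusted p = 0.0544).

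Foxo3 was at 600, 614, 508 and 581 CPM in the double mutants aged 40, 35, 11 and 11 weeks. Controls aged 36 and 38 weeks held 914 and 848 CPM, and those aged 10 and 17 weeks 592 and 712 CPM, so that the youngest control fell within the range of the mutants. The change was −0.41 ± 0.13 (adjusted p = 0.0426). With an age term it was −0.40 ± 0.11 and still called (edgeR, adjusted p = 0.0204), where 21.19% of all genes were called. Among the younger animals alone it was −0.25 ± 0.17 and not called (adjusted p = 0.426). The call was also lost without any 1 library of the 3 groups other than control replicate 2, aged 10 weeks (adjusted p from 0.0563 to 0.136).

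**Figure D3:**
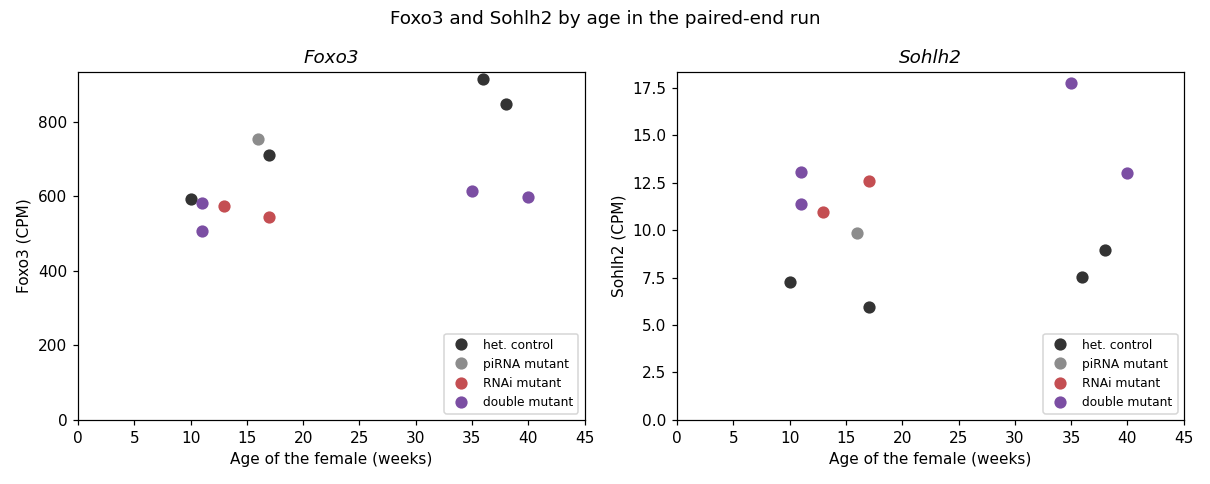
Foxo3 and Sohlh2 in CPM (linear axes from 0) against the age of the female in weeks, for the 11 paired-end libraries coloured by genotype. Older controls hold the highest Foxo3 values (914 and 848 CPM), while Sohlh2 is above every control in all 6 RNAi and double mutant libraries at either age.

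In the paired-end run Nobox fell into separate ranges by Gm42418. Its level was 493 to 668 CPM in the 6 libraries with more Gm42418 and 280 to 448 CPM in the 5 with less. Within the first set the double mutants held 668 and 667 CPM and the controls 493 and 521 CPM, and within the second set the double mutants held 448 and 406 CPM and the controls 338 and 280 CPM. Double mutants were thus above controls in each set, although the pooled groups overlapped (0.42 ± 0.21, adjusted p = 0.183). With Gm42418 as a covariate the difference was 0.39 ± 0.10 (adjusted p = 0.0110), where 24.85% of all genes were called. Within the sets it was 0.43 ± 0.10 (adjusted p = 0.0220) and 0.48 ± 0.19 (adjusted p = 0.177). The sets were split after seeing the data, and 16.59% and 7.928% of all genes were called in them. The RNAi mutants, at 519 and 595 CPM, differed from the controls of their own set by 0.14 ± 0.10 (adjusted p = 0.428).

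**Figure D4:**
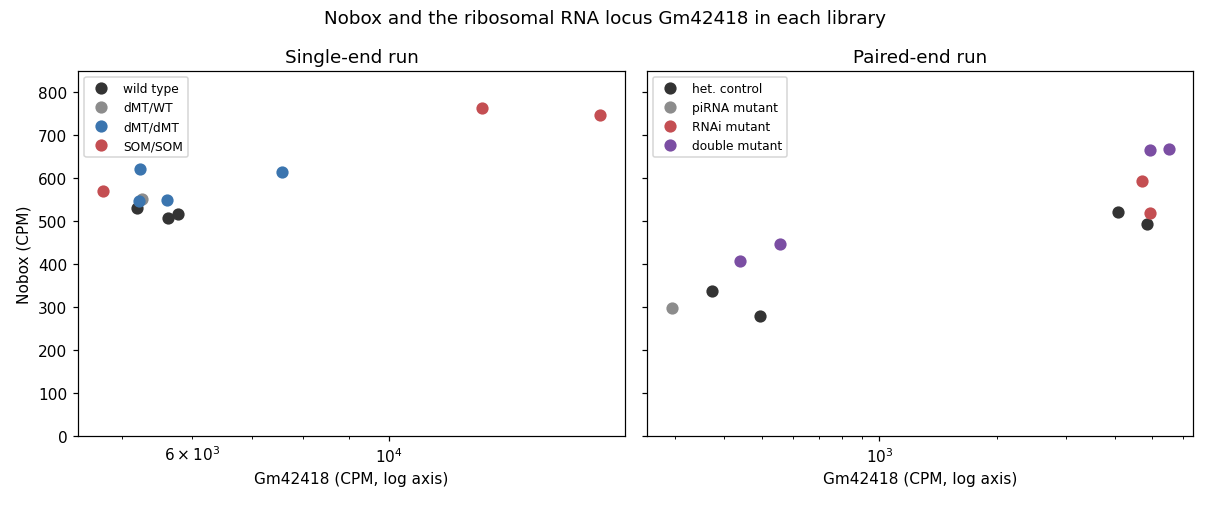
Nobox (CPM, linear axis) against the ribosomal RNA locus Gm42418 (CPM, log axis), 1 point per library, by run and genotype. In the paired-end run the 5 libraries under 1000 CPM of Gm42418 hold 280 to 448 CPM of Nobox and the other 6 hold 493 to 668 CPM, and in each set the double mutants are above the controls.

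The other members showed no call in the double mutants. Lhx8 was at 233, 234, 233 and 209 CPM in double mutants and at 197, 203, 245 and 207 CPM in controls (0.09 ± 0.11, adjusted p = 0.600). Differences of Figla, Taf4b, Pou5f1 and Tbpl2 lay between −0.18 and 0.19, with overlapping groups. Pou5f1 also split by Gm42418 set in part, with 18.7 to 26.2 CPM in the first and 14.0 to 19.0 CPM in the second. Its antisense neighbour Gm19553 was at 6.05 ± 1.09 CPM in controls and 7.72 ± 0.837 CPM in double mutants (n = 4 each), and reads in the shared exon cannot be assigned to a strand.

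Adding the MILI mutation to the SOM/SOM genotype was addressed by double against RNAi mutants. The double mutants include older animals and the RNAi mutants do not. None of the 8 members passed by edgeR or DESeq2 and 0 had an unadjusted p under 0.05 (4.78% of all genes), in a comparison where 0.310% of all genes were called higher and 0.00476% lower. The differences lay between −0.28 (Pou5f1) and 0.23 (Sohlh2), with standard errors from 0.13 to 0.26, and every member overlapped between the groups over all libraries. Foxo3 and Lhx8 differed by 0.04 ± 0.17 and 0.00 ± 0.13. With an age term Foxo3 differed by −0.11, and among the younger animals alone by −0.028, without a call. Nobox differed by −0.03 ± 0.26 over all libraries, and by 0.29 ± 0.10 (adjusted p = 0.469) among those with Gm42418 over 1000 CPM, where the double mutants (668 and 667 CPM) did not overlap the RNAi mutants (519 and 595 CPM).

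Older and younger animals were compared over double mutants and controls with genotype in the model. None of the 8 members passed, and 0% of the 18641 genes tested were called, with 1022 genes at an unadjusted p under 0.05; DESeq2 called 0.246% of genes and no member. Foxo3 had the one unadjusted p under 0.05 among members, at 0.28 ± 0.12 higher in older animals (adjusted p = 0.880). The age effect did not differ between double mutants and controls in any member at the adjusted threshold, the largest difference being that of Tbpl2 (−0.86 ± 0.39, adjusted p = 0.980).

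Genes that work with these factors were followed as lists chosen with earlier results of these data known, and were not tested as sets. The shares of all genes called higher and lower, against which each list's counts are read, were 8.06% and 7.30% in dMT/dMT, 14.5% and 14.2% in SOM/SOM, 7.07% and 3.64% in RNAi mutants, and 12.3% and 8.83% in double mutants. Of 18 genes of the FOXO family and of the KIT, PI3K and AKT branch upstream of FOXO3, 7 fell and 0 rose in Dicer dMT/dMT, 6 fell and 0 rose in SOM/SOM, and 3 fell and 0 rose in RNAi mutants and likewise in double mutants. The list's median log2 change was −0.22, −0.29, −0.21 and −0.27 in these comparisons, against medians from −0.02 to 0.02 over all genes. Kit, the receptor at the head of the branch, fell from 469 ± 3.82 to 276 ± 34.2 CPM in SOM/SOM (−0.76 ± 0.10, adjusted p = 3.00e-04). It fell from 558 ± 80.0 to 310 ± 32.3 CPM in double mutants (−0.85 ± 0.13, adjusted p = 2.93e-04). Pik3r1, a regulatory subunit of PI3K, fell from 388 ± 24.2 to 226 ± 22.7 CPM in SOM/SOM, and Pik3cb, a catalytic subunit, from 43.7 ± 4.11 to 29.0 ± 3.49 CPM in double mutants.

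Among 11 dimer partners and other factors of the oocyte programme, 2 rose and 2 fell in dMT/dMT, 3 rose and 2 fell in SOM/SOM, 3 rose and 0 fell in RNAi mutants, and 3 rose and 1 fell in double mutants. The list's medians were 0.08, 0.10, 0.15 and 0.05 on the log2 scale, in the same order. Ldb2, which encodes a LIM domain-binding cofactor of the kind that LIM homeobox proteins use, rose from 9.85 ± 1.45 to 57.7 ± 17.7 CPM in SOM/SOM (2.57 ± 0.21, adjusted p = 9.09e-06). It rose from 9.01 ± 1.16 to 51.8 ± 11.6 CPM in double mutants (2.52 ± 0.18, adjusted p = 4.25e-07), and by 1.62 ± 0.20 in dMT/dMT. Stat3, a cytokine-activated factor, rose from 217 ± 17.6 to 628 ± 128 CPM in SOM/SOM and was at 218 ± 18.4 CPM in dMT/dMT, and the direct comparison of both mutants gave 1.54 ± 0.13 (adjusted p = 6.46e-05). Dynll1, a dynein light chain, rose in all 4 comparisons with controls, by 1.10 to 1.39. Tcf4, an E protein that pairs with helix-loop-helix factors, fell by 1.34 on the log2 scale in dMT/dMT, from 6.40 ± 0.798 to 2.53 ± 0.561 CPM.

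Of 20 genes of TFIID, TFIIA and the TBP family, 3 rose and 0 fell in dMT/dMT, 4 rose and 4 fell in SOM/SOM, and 1 rose and 0 fell in RNAi mutants and in double mutants alike. The medians were 0.04, −0.08, 0.06 and 0.08. Tbpl1, the other TBP-like gene, rose from 10.0 ± 1.40 to 28.7 ± 7.84 CPM in SOM/SOM (1.5 ± 0.19, adjusted p = 1.87e-04). Taf1, the largest TFIID subunit, rose by 0.71 ± 0.12 in dMT/dMT and 0.69 ± 0.13 in SOM/SOM. Taf9b rose by 0.49 ± 0.12 in dMT/dMT, 0.71 ± 0.12 in RNAi mutants and 0.78 ± 0.10 in double mutants. In RNAi and double mutants Taf9b was the 1 gene of the list called, so Tbpl1 and Taf1 were not called in either. Tbp itself did not pass in any comparison.

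Of the 14 oocyte genes known to depend on the factors, 2 fell in dMT/dMT, 3 in SOM/SOM, 1 in RNAi mutants and 5 in double mutants, where 7.30%, 14.2%, 3.64% and 8.83% of all genes were called lower, and 0 of the 14 rose. The medians were −0.07, −0.06, −0.21 and −0.12. Mos, the kinase that holds eggs at metaphase, fell in all 4 comparisons, from 161 ± 11.2 to 129 ± 12.9 CPM in SOM/SOM and from 122 ± 22.7 to 80.1 ± 12.8 CPM in double mutants. Gpr149, an oocyte receptor, fell from 55.7 ± 1.97 to 38.3 ± 3.54 CPM in SOM/SOM, and Zar1, a maternal RNA-binding factor, from 519 ± 11.4 to 376 ± 61.5 CPM. Zp3 and Gdf9, targets of FIGLA and NOBOX, did not pass, at 0.26 ± 0.12 (adjusted p = 0.114) and −0.08 ± 0.08 (adjusted p = 0.513) in SOM/SOM.

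Of 10 pluripotency factors that work with POU5F1, 8 could be tested: 2 rose and 1 fell in dMT/dMT and likewise in SOM/SOM, 0 were called in RNAi mutants, and 1 rose and 0 fell in double mutants. The medians were −0.23, 0.29, 0.31 and 0.18. Tfcp2l1 rose from 6.19 ± 0.534 to 14.8 ± 2.94 CPM in SOM/SOM and from 8.58 ± 1.84 to 19.0 ± 2.68 CPM in double mutants. Sall4 fell from 954 ± 69.3 to 717 ± 27.4 CPM in SOM/SOM, and to 768 ± 29.4 CPM in dMT/dMT. Of the 8 B cell markers, 3 could be tested in the single-end run, with 0 called in dMT/dMT and 1, Ms4a1, lower in SOM/SOM. In the paired-end run 4 could be tested, with 0 called in RNAi mutants and 2, Ptprc and Ighm, higher in double mutants. Ighm rose in the latter (83.6 ± 17.0 against 55.6 ± 11.3 CPM, 0.59 ± 0.18, adjusted p = 0.0302). Of the 12 granulosa and cumulus markers, 0 rose and 1, Has2, fell in dMT/dMT and in RNAi mutants, and 0 passed in double mutants. Has2 was low, falling from 1.05 to 0.141 CPM in dMT/dMT (−2.86 ± 0.52). Its mean was under 1 CPM in RNAi mutants and in their controls. In SOM/SOM 1 rose and 2 fell: Fshr was higher (1.32 against 0.446 CPM), and Has2 and Cyp19a1 were lower. The part of other cells in the members' changes was not tested, and in pooled oocytes fewer transcripts per cell cannot be told apart from a smaller share of cells that hold them.

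Genes most like each member over the 22 libraries were ranked by Pearson's r of log2 CPM after each run's mean was removed, among 14112 genes. The points share runs, genotypes, depth and ribosomal RNA content, so the ranks are descriptive. Foxo3 was followed most closely by Scmh1 (r = 0.958), Slc6a6 (0.946) and Wasf2 (0.941), and Nobox by Gpx3 (0.937), Baz2b (0.936) and Trim26 (0.929). Sohlh2 was most like Stat5a (0.918), Aars (0.895) and Myadm (0.895). For Pou5f1 the closest gene was its antisense neighbour Gm19553 (0.894), then Pagr1b (0.840) and Stx4a (0.814). Tbpl2 was most like Gm26917 (0.830), Gas2l1 (0.825) and Zp3 (0.815), and Figla like Gm26608 (0.847), Gm26718 (0.845) and Pgam5 (0.843). The closest genes were weaker for Lhx8 (4930539J05Rik, 0.825, Ppdpf, 0.805, and mt-Nd2, 0.785) and for Taf4b (B230219D22Rik, 0.789, Akr1c21, 0.778, and Klhl42, 0.761).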

How the data were processed

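RNA-seq was measured in 22 libraries of GV oocytes, each made by the authors from 25 oocytes with a kit that amplifies total RNA. The authors mapped reads with STAR 2.5.3a to mm10 and counted them with featureCounts over GENCODE M15 genes, and they deposited estimated counts per gene: strand was ignored and reads with several places or genes gave each a fraction, so values need not be whole. Counts were rounded, and symbols were matched for 52403 of 52636 genes. Genes were kept by filterByExpr (10 counts, total of 15), each run was fitted apart over all its replicated groups with edgeR 4.0.16 (R 4.3.3) after trimmed mean of M-values scaling, and calls used the quasi-likelihood test with Benjamini-Hochberg adjustment at 0.05. The piRNA mutant and the Dicer dMT/WT library, with 1 library each, were in no comparison. DESeq2 1.42.0, size factors by relative log expression, other filters, terms for age, replicate number and Gm42418, and leaving out each library were alternatives. The Gm42418 term in the single-end run and the split of paired-end libraries at 1000 CPM of Gm42418 were chosen after seeing the data. Counting error is the only error that a limit of 3 counts covers. The labels do not say whether replicates came from separate animals, so p-values measure the spread between these libraries, which may be technical. Ages in the labels of the paired-end run, from 10 to 40 weeks, span more than the range in the study's methods, and the labels were used.

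Members and gene lists were chosen with earlier results of these data known. All 9 members are named. Of each list, up to 3 called genes with the largest change per comparison and a mean of at least 1 CPM in a compared group were eligible, together with genes overlapping a member, the 3 genes most like each member, Dicer1 and Gm42418. Zp3, Gdf9, Tbp and Ptprc were named after their values were seen.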

Additional observations from a re-analysis of the deposited data

Results flagged for a closer look

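In double mutants, Lhx8 was at 209.4 CPM in replicate 2, aged 11 weeks, far from the other 3 libraries at 233, 234 and 233 CPM. The threshold used for a gap relative to the range is passed by chance in about 1 of 20 groups, and 27 sets of a member and a group of 4 libraries were screened.

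The single Dicer dMT/WT library, which is in no comparison, held 3 members above the highest wild-type library. Sohlh2 was at 7.37 CPM against 4.80 to 6.36 CPM, Nobox at 550.9 CPM against 507 to 530 CPM, and Lhx8 at 208.5 CPM against 161 to 182 CPM. Below every wild-type library were Pou5f1 (29.83 against 29.93 to 37.17 CPM), Taf4b (29.6 against 32.3 to 43.4 CPM) and Tbpl2 (8.45 against 8.65 to 10.1 CPM). Foxo3, at 1023 CPM, was within the wild-type range.

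The single piRNA mutant held Sohlh2 at 9.85 CPM, above the controls at 5.94 to 8.96 CPM and below both RNAi mutants. Below every control were Lhx8 (173 against 197 to 245 CPM), Taf4b (27.6 against 28.8 to 41.4 CPM) and Tbpl2 (5.96 against 6.73 to 10.6 CPM). Its Foxo3 (755 CPM) and Nobox (298 CPM) were within the control range. With 1 library each, these differences were not tested.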

How the results depend on the processing

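Of 1022 values of single members under another setting, 921 kept their direction and their side of the threshold, 31 lost a call, 20 gained one and 50 changed sign, all 50 without a call in either setting. Counts of called members are given with the share of all genes called at that setting. In Dicer dMT/dMT against wild type, 1 member was called in the main analysis (15.36%), 0 without a filter (7.268%), 0 with a replicate block (10.88%) and 3 with only the 2 groups fitted (23.89%; Foxo3, Lhx8 and Sohlh2), and leaving out a library gave 0 to 2 (9.13 to 20.24%), with 2 without SOM/SOM replicate 3. In Dicer SOM/SOM against wild type, 3 were called (28.63%), 5 with DESeq2 (31.06%; Figla and Tbpl2 added), 1 with a Gm42418 term (19.3%), and 2 to 4 without a library (20.61 to 27.12%). In SOM/SOM against dMT/dMT, leaving out a library gave 0 to 1 (3.915 to 7.528% of genes, 7.352% in the main analysis; Nobox, 0.38, without SOM/SOM replicate 2). In RNAi mutants, 0 were called (10.71%), 1 with DESeq2 (14.14%), 1 with at least 5 CPM (16.72%), 1 with an age term (8.686%), 1 with a Gm42418 term (11.01%), 2 among libraries with Gm42418 over 1000 CPM (12.86%), and 0 to 1 without a library (5.778 to 11.48%; Foxo3, without control replicate 2). In double mutants against controls, 2 were called (21.18%), 1 with a replicate block (16.11%), 1 with only the 2 groups (21.1%), 0 in younger animals (9.803%), 0 among libraries with Gm42418 under 1000 CPM (7.928%), and 1 to 2 without a library (17.81 to 21.14%). The highest count was 3, with Nobox added by a Gm42418 term (24.85%) and among libraries with Gm42418 over 1000 CPM (16.59%). The cause of these changes was not tested, and several of these fits hold fewer libraries.

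The labels do not say whether replicate numbers pair the samples. Deviations of same-numbered libraries correlated between −0.07 and 0.18, which cannot settle this in groups so small. In the paired-end run, libraries numbered 1 or 1o were all in the set with more Gm42418. Those numbered 2 or 2o were all in the set with less, apart from RNAi mutant replicate 2. With the replicate block, Foxo3 was at −0.30 (adjusted p = 0.0925) in dMT/dMT and −0.36 (0.124) in double mutants, and no other call changed.

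In dMT/dMT, Figla was −0.02 and became 0.013 at 5 CPM (−0.131 to 0.098 without a library). In SOM/SOM against dMT/dMT, Taf4b ranged from −0.113 to 0.008 without a library. In younger animals, RNAi mutants gave −0.002 for Lhx8 and −0.002 for Tbpl2, and Tbpl2 ranged from −0.004 to 0.443 without a library. In double mutants against controls, Tbpl2 was 0.011 at 5 CPM, 0.014 with the replicate block and 0.072 over 1000 CPM of Gm42418 (−0.134 to 0.107 without a library), Figla 0.044 over 1000 CPM (−0.232 to 0.013 without a library), and Lhx8 −0.024 in younger animals and −0.008 under 1000 CPM. In double against RNAi mutants, Nobox was 0.005 at 5 CPM, 0.25 with a Gm42418 term and 0.287 over 1000 CPM (−0.135 to 0.108 without a library). Foxo3 was −0.127 with the block, −0.11 with an age term and −0.028 in younger animals. Taf4b was −0.001 with the block and −0.051 in younger animals (−0.01 to 0.09 without a library). Figla was −0.111 in younger animals (−0.05 to 0.13), and Lhx8 −0.022 there and −0.009 with a Gm42418 term (−0.008 to 0.053). By age without a library, Nobox ranged from −0.105 to 0.257, Pou5f1 from −0.045 to 0.209, Figla from −0.245 to 0.064, Taf4b from −0.15 to 0.059, Tbpl2 from −0.297 to 0.051 and Lhx8 from −0.129 to 0.023.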
